A study of Mus musculus with 12 samples.

Results

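The genes examined were 6 that encode transcription factors, or a cofactor of them, of the embryonic kidney progenitors set against chromatin immunoprecipitation data for GZF1 in mouse embryonic stem cells: Osr1, Eya1, Six4, Pax2, Sall1 and Six2. Their windows are the mm10 gene bodies with 5 kb on each side, which cover 366 of 2462755 autosomal bins of 1 kb and are 6 of 20661 windows of autosomal protein-coding genes. The rule names the genes and uses no measured value, but the genes were chosen with earlier results of these data known.

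GZF1 is a zinc-finger protein with a BTB domain that was first described as a product induced by GDNF, the growth factor that draws the ureteric bud into the kidney mesenchyme. The mesenchyme around the bud holds the nephron progenitors. Osr1 marks the intermediate mesoderm from which they form, Eya1 with factors of the sine oculis family, Pax2 and Sall1 specifies them and keeps Gdnf on, and Six2 keeps them self-renewing. In embryonic stem cells genes of this class are developmental regulators that are largely silent, with CpG-rich promoters.

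The series assayed formaldehyde-fixed, micrococcal nuclease-digested chromatin, and 8 of its 12 libraries are described, 1 for each line, genotype and antibody. The Cas9 cells, labelled Cas9-GFP, gave 6 libraries: wild type with anti-GZF1, a control with anti-GZF1, a Gzf1 knockout with anti-GZF1, Gzf1-Flag overexpression clone 35 with anti-FLAG, wild type with an H3K27ac antibody, and input chromatin with no antibody. RGM, a 129xCAST line, gave 2 libraries: wild type with anti-GZF1 and Gzf1-Flag overexpression clone 56 with anti-FLAG. Gzf1-Flag came from an ectopic construct, and each Gzf1-Flag library is 1 clone. What sets the Cas9 control apart from the Cas9 wild type is not given in the sources used here. An anti-FLAG library of cells without Gzf1-Flag was not analysed here, so the background of the FLAG antibody at these genes was not measured. The Cas9 input served for the RGM libraries too.

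The knockout label was checked at Gzf1 itself: over its gene window the density was 0.691 in the knockout, the lowest of the 8 libraries, and 0.959 in the control, and each of the 24 bins held 8 or more reads in the knockout. This shows no loss of a whole bin and cannot show a smaller edit. With 1 library per group there were no replicates and no p-values. Libraries held 10.1 M reads (input) to 94.2 M reads (control), with 21.8 M in RGM wild type. Read density is the number of reads per bin divided by the autosomal mean of the same library, so 1 is the average of the autosomes. Brackets give 95% intervals, exact Poisson for a density and exact binomial (Clopper-Pearson) for a ratio, which cover counting error only. The stem cell label was checked on H3K27ac, which marks active regulatory elements: its median log2 over input was 0.12 at 12 stem cell genes, 0.08 at 8 fibroblast genes and 0.03 at 8 genes of differentiated tissues, against 0.02 for all genes, with 9, 6 and 4 of the genes above that median. Fibroblast feeder genes were therefore not separated from stem cell genes by this measure.

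The promoters of 4 of the 6 genes, 250 bases before to 50 after an annotated start, are in a RefSeq table of GRCm38.p6, the assembly of mm10. Eya1 and Osr1 have no entry. The 4 sequences below, 1 for each gene, are shown because the highest GZF1 signal of Sall1 and Six4 and part of that of Six2 lay at or next to them, and because GZF1 binding is tied in the series title to DNA methylation, which occurs at CpG. They run 5′ to 3′ with every CpG in capitals.
Six4 promoter, chr12:73113196-73113495, minus strand: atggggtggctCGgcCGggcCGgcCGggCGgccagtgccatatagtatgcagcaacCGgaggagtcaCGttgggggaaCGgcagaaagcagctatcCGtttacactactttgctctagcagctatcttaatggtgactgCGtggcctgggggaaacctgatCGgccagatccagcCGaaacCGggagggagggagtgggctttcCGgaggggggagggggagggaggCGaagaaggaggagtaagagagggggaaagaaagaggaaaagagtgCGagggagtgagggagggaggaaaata
Pax2 promoter, chr19:44756656-44756955, plus strand: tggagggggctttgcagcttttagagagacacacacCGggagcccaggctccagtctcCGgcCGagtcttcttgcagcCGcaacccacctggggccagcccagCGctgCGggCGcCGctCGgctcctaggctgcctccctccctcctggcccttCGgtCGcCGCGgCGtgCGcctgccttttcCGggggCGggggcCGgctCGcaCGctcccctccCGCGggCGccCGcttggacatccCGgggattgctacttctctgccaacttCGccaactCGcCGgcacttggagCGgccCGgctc
Sall1 promoter, chr8:89043463-89043762, minus strand: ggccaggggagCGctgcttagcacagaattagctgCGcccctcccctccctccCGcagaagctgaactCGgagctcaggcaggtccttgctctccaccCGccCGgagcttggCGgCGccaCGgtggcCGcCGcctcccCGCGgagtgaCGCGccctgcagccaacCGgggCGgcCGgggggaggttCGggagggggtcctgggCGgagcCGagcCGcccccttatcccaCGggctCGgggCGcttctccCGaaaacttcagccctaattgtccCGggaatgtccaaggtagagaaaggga
Six2 promoter, chr17:85688205-85688504, minus strand: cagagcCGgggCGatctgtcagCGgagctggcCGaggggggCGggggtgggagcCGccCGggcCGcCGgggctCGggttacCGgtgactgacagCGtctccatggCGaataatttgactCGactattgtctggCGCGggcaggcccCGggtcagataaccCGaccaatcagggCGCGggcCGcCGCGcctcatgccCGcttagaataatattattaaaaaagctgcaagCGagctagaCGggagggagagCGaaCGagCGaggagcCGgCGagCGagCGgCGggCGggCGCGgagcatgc

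Of the 9 RefSeq promoters of these 4 genes 8 had more CpG than the median promoter. Six2 had 37 CpG, Six4 16 and 15 at its 2 starts, Pax2 7, 23 and 30 at its 3 starts and Sall1 18, 27 and 39 at its 3 starts, while the median of 31396 promoters was 7. The letters TGCCGC, the known core of the ZFP57 motif, were in none of the 9 on either strand and in 11.6% of all promoters. TGCGC, the first letters of the sequence that GZF1 is known to bind in vitro, occurred 2 times and 1 time in the Pax2 promoters with 23 and 30 CpG and 1 time each in the Sall1 promoters with 27 and 39 CpG, and 30.6% of all promoters held it on either strand. TGCGC followed after 3 letters of any kind by TATA, which contains TGCGC, was in none of the 9 and in 4 of all promoters. These letter matches describe the printed windows only.

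Averaged over the 4 libraries for GZF1 (wild-type anti-GZF1 and Gzf1-Flag anti-FLAG, each in Cas9 and RGM), log2 of the density over input with a pseudocount of 0.5 was −0.12 for Sall1, −0.08 for Eya1, −0.02 for Six4, 0.02 for Six2, 0.06 for Osr1 and 0.22 for Pax2. The median of the 6 genes was 0.001, the median of all gene windows was 0.039, and 2 of the 6 genes lay above it. Pax2 was the highest of the 6, with 15.1% of all gene windows at or above its value, but the place of the genes depended on the bins taken. Over the gene body alone Osr1 was the highest, at 0.43 against 0.24 for Pax2, and over the bins that passed the input filter (0.25 to 3 times the input mean) Sall1 was, at 0.19 against 0.18 for Pax2.

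**Figure D1:**
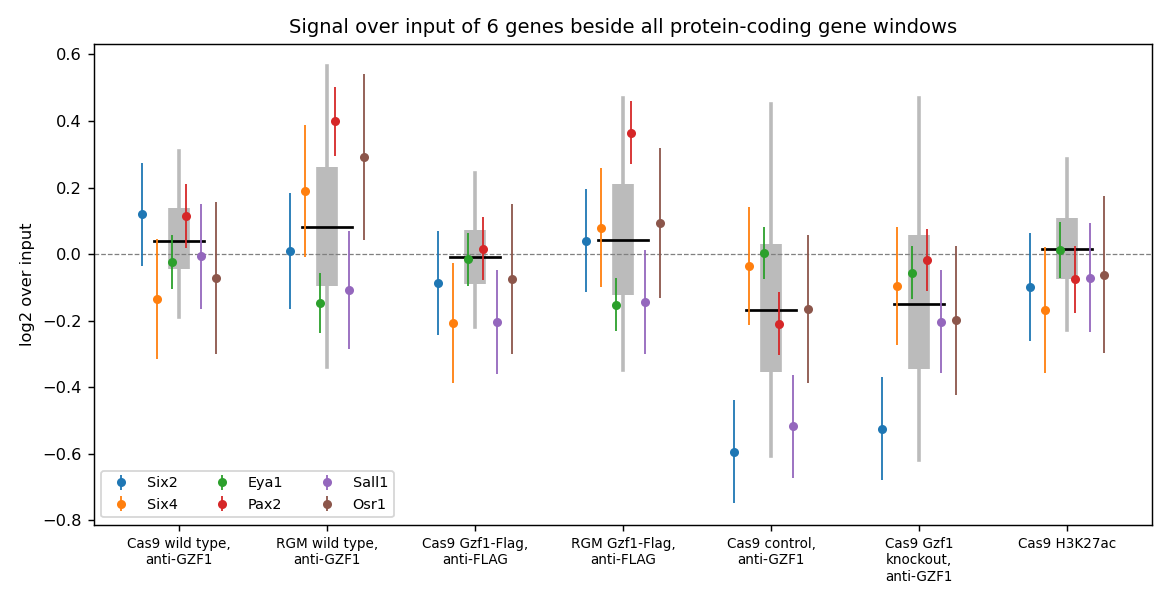
Log2 of read density over input (vertical axis, pseudocount 0.5) in the 7 antibody libraries (horizontal axis). Coloured points are the 6 genes with 95% counting intervals. Grey boxes span the middle 50% of all autosomal protein-coding gene windows, grey lines the middle 90%, and black bars mark their medians. Pax2 is highest in both RGM libraries, at 0.40 and 0.37, and Six2 is lowest in the control and the knockout, at −0.59 and −0.52.

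Osr1 (chr12:9574442-9581500) encodes a zinc-finger factor of the intermediate mesoderm. Its density was 1.27 in Cas9 wild type, 1.77 in RGM wild type, 1.26 in Cas9 Gzf1-Flag, 1.48 in RGM Gzf1-Flag, 1.16 in the control, 1.12 in the knockout, 1.28 with H3K27ac and 1.36 in input. RGM wild type was the highest, and its interval (1.57 to 1.997) overlapped the input's (1.10 to 1.66). The window stood above its own neighbourhood: against the surrounding 1 Mb it was 1.90-fold in Cas9 wild type, 2.34-fold in RGM wild type, 1.61-fold and 1.80-fold with anti-FLAG in Cas9 and RGM, 1.15-fold in the control and 1.22-fold in the knockout. The input was also 1.87-fold there and H3K27ac 1.77-fold, so the rise of the window over its neighbourhood was in the input as well, and the control and knockout showed less of it. Over the gene body alone the input density fell to 0.923, while Cas9 wild type stayed at 1.28 and RGM wild type at 1.76. Log2 over input then went from −0.07 to 0.33 in Cas9 wild type and from 0.29 to 0.66 in RGM wild type. It rose in every other antibody library too, H3K27ac included. The input held 96 reads over the whole window, so its gene-body density rested on fewer, and no counting interval was taken for it.

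Eya1 (chr1:14168953-14311035) encodes a phosphatase and coactivator that works with homeodomain proteins. Over its 154 bins the density was 1.16 in Cas9 wild type, 1.02 in RGM wild type, 1.17 in Cas9 Gzf1-Flag, 1.01 in RGM Gzf1-Flag, 1.19 in the control, 1.12 in the knockout, 1.20 with H3K27ac and 1.18 in input. Both RGM libraries were the lowest and their intervals (0.967 to 1.08 and 0.983 to 1.05) lay below those of all 6 Cas9 libraries. This was the flattest of the 6 windows, with a range of log2 over input from −0.15 to 0.01.

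Six4 (chr12:73099609-73114031) encodes a homeodomain factor of muscle and kidney development. Its density was 1.46 in Cas9 wild type, 1.96 in RGM wild type, 1.37 in Cas9 Gzf1-Flag, 1.78 in RGM Gzf1-Flag, 1.60 in the control, 1.51 in the knockout, 1.42 with H3K27ac and 1.65 in input. The RGM libraries were higher than the Cas9 libraries of the same antibody, and the control and knockout were not below Cas9 wild type.

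Pax2 (chr19:44746601-44838269) encodes a paired-box factor of both the mesenchyme and the ureteric bud. Its density was 1.44 in Cas9 wild type, 1.86 in RGM wild type, 1.31 in Cas9 Gzf1-Flag, 1.81 in RGM Gzf1-Flag, 1.05 in the control, 1.27 in the knockout, 1.20 with H3K27ac and 1.29 in input. Both RGM libraries were above every Cas9 library, and their log2 over input was 0.40 (0.29 to 0.50) and 0.37 (0.27 to 0.46), with 13.4% and 10.5% of all gene windows at or above them. Most of this height was shared with the region: over its surrounding 1 Mb the Pax2 window was 1.11-fold in each RGM library and 1.01-fold to 1.02-fold in the Cas9 libraries of the same 2 antibodies.

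Sall1 (chr8:89027242-89044162) encodes a zinc-finger factor needed for the bud to enter the mesenchyme. Its density was 2.33 in Cas9 wild type, 2.14 in RGM wild type, 1.97 in Cas9 Gzf1-Flag, 2.08 in RGM Gzf1-Flag, 1.49 in the control, 1.97 in the knockout, 2.21 with H3K27ac and 2.35 in input. Sall1 had the highest density of the 6 genes in 7 of the 8 libraries, the input included, and in RGM wild type its interval overlapped that of Six4. Over all 28 bins its log2 over input was below 0 in the 7 antibody libraries, with values from −0.52 in the control to −0.01 in Cas9 wild type. Of its 28 bins 8 failed the input filter. Over the remaining 20 bins the log2 value was 0.29 in Cas9 wild type, 0.11 in RGM wild type, 0.20 in Cas9 Gzf1-Flag, 0.14 in RGM Gzf1-Flag, 0.20 in the knockout, 0.29 with H3K27ac and −0.09 in the control. The sign of the Sall1 value therefore depended on the bins that failed the filter in every antibody library but the control. The filter is set on the input density, the shared denominator of these values, so their common shift cannot be read as a change of antibody signal. Over all 28 bins the counting intervals covered 0 in Cas9 wild type, RGM wild type, RGM Gzf1-Flag and H3K27ac.

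Six2 (chr17:85662736-85688254) encodes the homeodomain factor that keeps nephron progenitors undifferentiated. Its density was 1.64 in Cas9 wild type, 1.48 in RGM wild type, 1.36 in Cas9 Gzf1-Flag, 1.53 in RGM Gzf1-Flag, 0.808 in the control, 0.872 in the knockout, 1.34 with H3K27ac and 1.47 in input. The control (0.760 to 0.858) and the knockout (0.820 to 0.926) lay below the other 6 libraries with no overlap of intervals, and below the autosomal mean. Their log2 over input was −0.59 and −0.52, with 94.5% and 90.6% of all gene windows at or above them. The surrounding 1 Mb was also low in these libraries, at 0.873 and 0.856, and Six2 was 0.926-fold and 1.02-fold of it, with 85.1% and 57.5% of all gene windows at or above those folds.

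**Figure D2:**
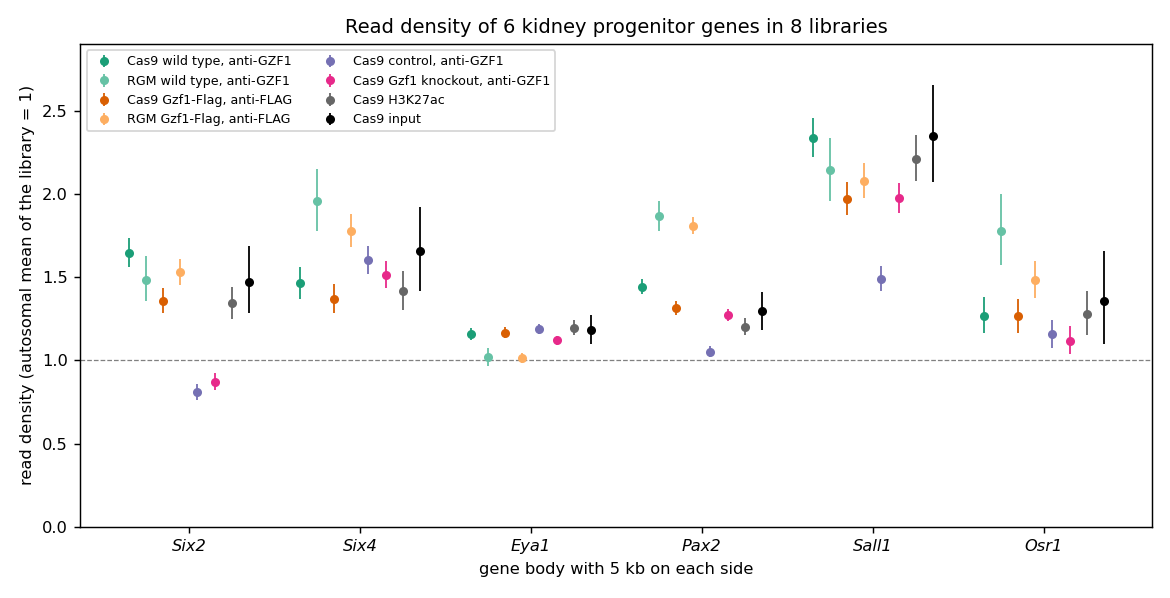
Read density of the 6 gene windows (vertical axis, autosomal mean of each library set to 1) in each of 8 libraries, with 95% exact Poisson intervals. Sall1 is highest in every library but the control, and Six2 falls below 1 in the control (0.808) and knockout (0.872) only.

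In the input the order of the 6 genes by density was Sall1, Six4, Six2, Osr1, Pax2 and Eya1, and only the step from Sall1 to Six4 was larger than the counting intervals. Of the 7 antibody libraries H3K27ac alone had the same order. Eya1 was last in 6 of the 8 libraries and Six2 was last in the control and the knockout.

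Few bins stood out from their surroundings, within the windows as across the autosomes. A bin was counted when its density was at least 2-fold the median of 10 bins on each side, both with the pseudocount. Of 366 bins, 3 (0.820%) passed in Cas9 wild type, where 0.483% of all autosomal bins did, and 13 (3.55%) passed in RGM wild type, where 2.32% did. With anti-FLAG 0 passed in Cas9 (against 0.231% of all bins) and 4, or 1.09%, in RGM (against 0.529%). The control and the knockout had 0 each (against 0.0398% and 0.045% of all bins). H3K27ac had 1, or 0.273% (against 0.546%), and the shallow input had 20, or 5.46% (against 7.48%). RGM wild type, the library with the fewest reads after the input, also had the most passing bins of the antibody libraries, within the windows and across the autosomes.

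Agreement among the 4 GZF1 libraries was limited to Six2 and Pax2. In at least 2 of the 4 libraries 4 bins passed, 2 in each of these genes, against 0.585% of all autosomal bins, and in at least 3 libraries 2 bins passed, both in Pax2, against 0.307% of all bins. None passed in all 4, where 0.0994% of all bins did. Of the 14 bins that passed in at least 1 library (2.57% of all bins), 13 passed in RGM wild type. By window, Six2 held 4 of its 37 bins, Six4 3 of 26, Pax2 3 of 103, Eya1 2 of 154, Sall1 2 of 28 and Osr1 0 of 18.

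The clearest site lay near the 3′ end of Pax2. The bin at chr19:44836001-44837000 begins 2268 bp before the annotated 3′ end of the gene. It held 95 reads in Cas9 wild type, 39 in RGM wild type, 71.3 in Cas9 Gzf1-Flag, 141.7 in RGM Gzf1-Flag, 80.75 in the control, 62.9 in the knockout, 47 with H3K27ac and 10 in input, where fractions come from reads split across bin edges. The corresponding densities were 4.03 (3.26 to 4.92), 4.53 (3.22 to 6.19), 2.62 (2.05 to 3.30), 5.35 (4.51 to 6.31), 2.26 (1.79 to 2.81), 1.91 (1.47 to 2.44), 2.96 (2.18 to 3.94) and 2.55 (1.22 to 4.68). RGM Gzf1-Flag and both wild types were the highest, and the control and knockout the lowest. Over local background the bin was 3.66-fold in Cas9 wild type, 3.90-fold in RGM wild type, 2.46-fold in Cas9 Gzf1-Flag and 3.70-fold in RGM Gzf1-Flag. These folds carry no pseudocount; with it the Cas9 Gzf1-Flag value was 0.99 on the log2 scale, just under the level of 1 that defines a passing bin. The same bin was also 2.28-fold in the control, 2.36-fold with H3K27ac and 2.5-fold in input, and 1.43-fold in the knockout. It is the highest bin of its window by the mean of the 4 libraries and so a selected maximum, and 2279 autosomal bins had a higher mean.

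The bin before it, chr19:44835001-44836000, also passed in 3 of the 4 libraries. It was 2.66-fold over local background in Cas9 wild type, 3.77-fold in RGM wild type, 2.26-fold in Cas9 Gzf1-Flag and 2.91-fold in RGM Gzf1-Flag. Here the control stood at 1.10-fold, the knockout at 1.08-fold, H3K27ac at 1.034-fold and the input at 1.56-fold. In contrast to its neighbour, this bin was raised over local background in the 4 GZF1 libraries with no like rise in the control, the knockout or H3K27ac. The bin was named for passing in these same GZF1 libraries, so its height in them was partly selected. Its input density rested on 7 reads (1.78, interval 0.717 to 3.67).

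At Six2 the raised bins lay at the start of the gene. The bin chr17:85688001-85689000, which holds the annotated start and the printed promoter, had a density of 2.95 in Cas9 wild type, 3.59 in RGM wild type, 2.55 in Cas9 Gzf1-Flag, 3.87 in RGM Gzf1-Flag, 0.998 in the control, 1.37 in the knockout, 2.60 with H3K27ac and 1.69 in input. The next bin into the gene, chr17:85687001-85688000, had 4.13, 4.30, 2.31, 2.904, 0.730, 0.638, 2.57 and 2.64 in the same libraries. In both bins the 4 GZF1 libraries and H3K27ac were above the control and the knockout with no overlap of counting intervals. Both bins were named for passing in at least 2 of these 4 GZF1 libraries, so their height in them was partly selected. The input of 1.69 in the start bin rested on 6.65 reads (interval 0.661 to 3.55), and that of 2.64 in the second bin on 10.35 reads (interval 1.28 to 4.80). In each bin the input interval overlapped those of all 4 GZF1 libraries. Over local background the gene bin reached 2.47-fold in Cas9 wild type and 3.07-fold in RGM wild type, and the start bin 2.56-fold in RGM wild type and 2.49-fold in RGM Gzf1-Flag, with an input of 1.72-fold and 1.02-fold. In the gene bin the control was at 0.902-fold and the knockout at 0.682-fold. In the start bin the control was at 1.30-fold and the knockout at 1.53-fold, beside 1.72-fold in Cas9 wild type and 1.77-fold in Cas9 Gzf1-Flag.

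In Six4 and Sall1 the highest bin was led by RGM wild type. In Six4 the bin chr12:73112001-73113000, next to the printed promoter on the side of the gene, had a density of 6.04 (4.51 to 7.92) in RGM wild type, 4.95-fold over local background, and 2.19, 1.73 and 2.84 in Cas9 wild type, Cas9 Gzf1-Flag and RGM Gzf1-Flag, at 1.46-fold to 1.87-fold. The control was at 1.79 there, the knockout at 1.53, H3K27ac at 2.08 and the input at 2.04. In Sall1 the start bin chr8:89043001-89044000 reached 6.70 (5.08 to 8.67) in RGM wild type, 4.26 in Cas9 wild type, 2.17 in Cas9 Gzf1-Flag and 3.83 in RGM Gzf1-Flag, but its input density of 3.57 (1.95 to 5.98) failed the input filter. The control was at 1.74 in this bin, the knockout at 2.34 and H3K27ac at 3.05. In Eya1 the bin chr1:14309001-14310000 stayed below the 2-fold level, taken with the pseudocount, in all 4 libraries, with log2 values from 0.76 to 0.9997. On the same scale H3K27ac was at 1.25, the one bin of the 366 that passed for H3K27ac, and the input at 0.59 on 7 reads. In Osr1 the highest bin, chr12:9574001-9575000 at the low-coordinate end of the gene, had log2 values over local background of 0.33 to 0.69 in the 4 GZF1 libraries. H3K27ac was higher, at 0.98, and the knockout stood at 0.42, the control at 0.11 and the input at 0.22.

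**Figure D3:**
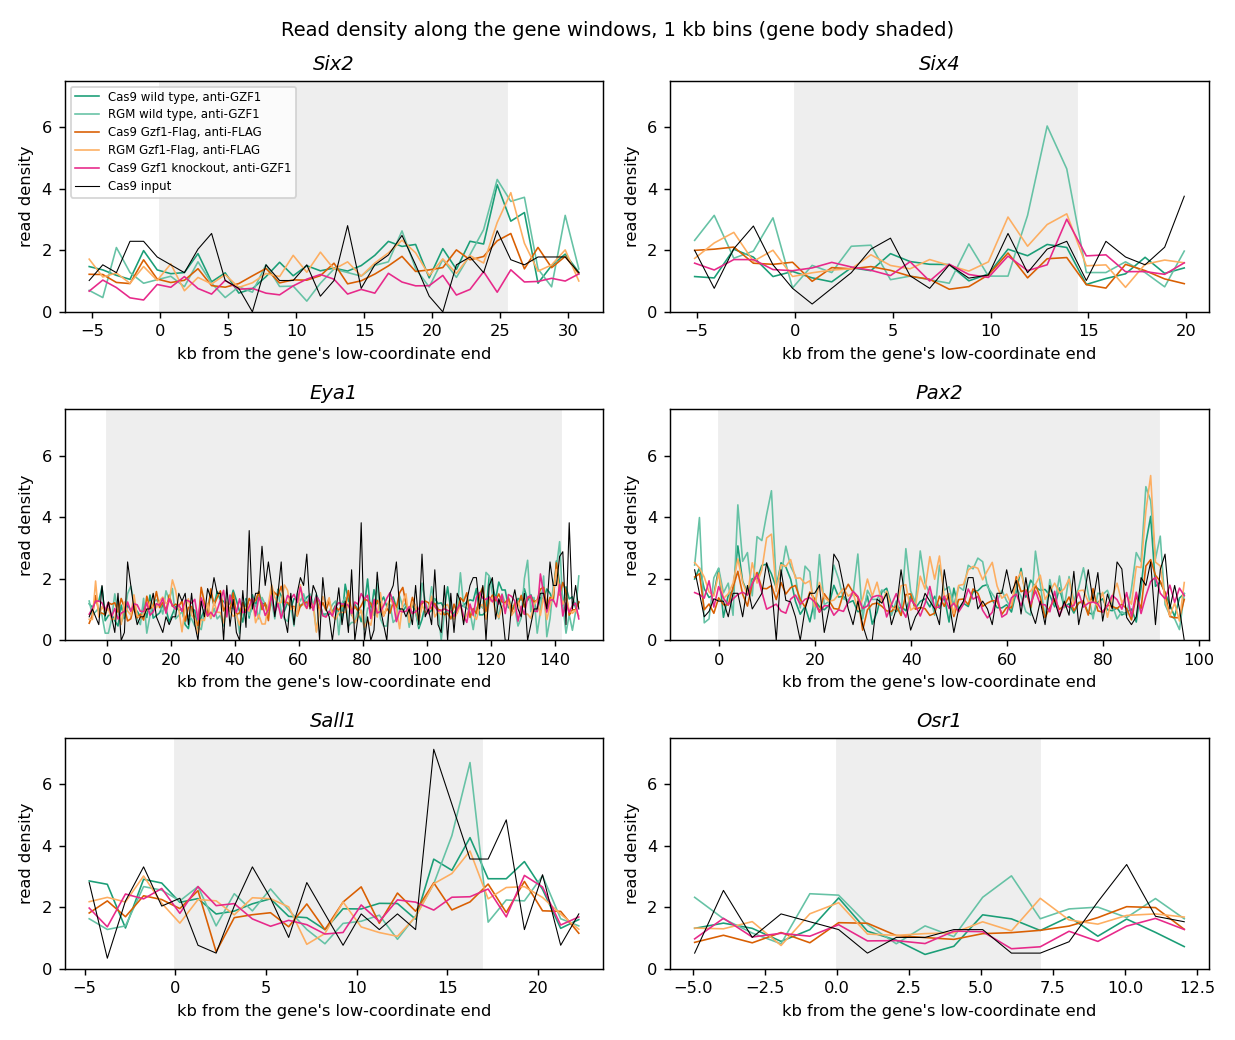
Read density in 1 kb bins (vertical axis) along each gene window (horizontal axis, kb from the low-coordinate end of the gene; the gene body is shaded) for the 4 GZF1 libraries, the knockout and the input. The rises near 25 kb in Six2 and near 89 kb in Pax2 appear in the GZF1 libraries. Over local background the input is also 2.5-fold at the highest Pax2 bin and 1.72-fold at the highest Six2 bin, where the knockout is 1.43-fold and 0.682-fold. The rise in Six4 is highest in RGM wild type at 6.04, and the input is highest of all in Sall1, at 7.13.

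The start bins of these genes were compared with those of other genes with CpG-rich promoters, a class set after the data were seen as bins with a RefSeq start whose promoter has at least 15 CpG. The class has 9055 autosomal bins. Of the 4 genes with an entry 7 bins belong to it, 1 each from Six2 and Six4, 2 from Pax2 and 3 adjoining bins from Sall1, which share a neighbourhood. In Cas9 wild type 0 of the 7 passed the 2-fold level, against 50.7% of the class. In RGM wild type 4 passed (78.9%), in Cas9 Gzf1-Flag 0 (16.6%) and in RGM Gzf1-Flag 1 (48.3%). With H3K27ac 0 passed (41.7%), in the control 0 (2.85%), in the knockout 0 (3.05%) and in input 1 (32%).

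Median values moved the same way. The median log2 over local background of the 7 bins was 0.46 in Cas9 wild type against 1.01 for the class, 1.11 against 1.49 in RGM wild type, 0.16 against 0.72 in Cas9 Gzf1-Flag, 0.63 against 0.99 in RGM Gzf1-Flag and 0.39 against 0.90 with H3K27ac. All 7 bins were below the class median in Cas9 wild type, Cas9 Gzf1-Flag and H3K27ac, 6 in RGM Gzf1-Flag, the control and the knockout, 5 in RGM wild type and 3 in input. Set against input in place of local background, 5, 5 and 6 bins were below the class median in Cas9 wild type, Cas9 Gzf1-Flag and H3K27ac, but 4 in RGM wild type, 5 in the control and 3 in RGM Gzf1-Flag and in the knockout. With a local background of 25 bins on each side, 7, 6, 6 and 6 bins were below the class median in Cas9 wild type, RGM wild type, Cas9 Gzf1-Flag and RGM Gzf1-Flag.

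**Figure D4:**
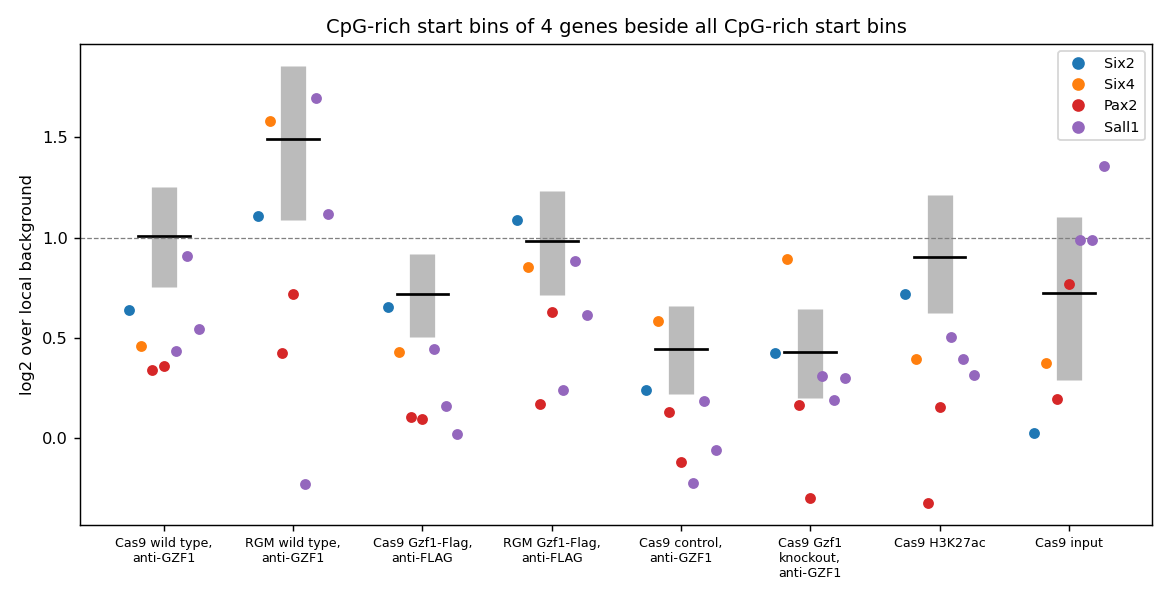
Log2 over local background (vertical axis) of the 7 CpG-rich start bins of Six2, Six4, Pax2 and Sall1 in 8 libraries (horizontal axis). Grey boxes span the middle 50% of 9055 CpG-rich start bins, black bars mark their medians and the dashed line marks the 2-fold level. All points lie below the black bar in Cas9 wild type, Cas9 Gzf1-Flag and H3K27ac.

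For H3K27ac over input the log2 values were −0.17 for Six4, −0.10 for Six2, −0.08 for Pax2, −0.07 for Sall1, −0.06 for Osr1 and 0.01 for Eya1. All 6 were below the median of all gene windows (0.02), and the median of the 6 was −0.07. The counting intervals of all 6 genes reached past that median, that of Six4 (−0.36 to 0.02) by the least. The values of Osr1 and Sall1 depended on the bins taken, at 0.18 for Osr1 over the gene body alone and 0.29 for Sall1 over the bins that passed the input filter. Against the surrounding 1 Mb the median H3K27ac density of the 6 was 1.16-fold and that of all gene windows 1.12-fold, with 4 of the 6 above the latter.

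The 6 windows were compared between 4 pairs of libraries. Each ratio was taken as is and again relative to the ratio of the surrounding 1 Mb, since whole regions differed between libraries. Intervals on the second scale leave out the counting error of the surrounding 1 Mb. A ratio was counted when its counting interval lay wholly on 1 side of 1.

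Between the wild types, the RGM to Cas9 ratio of anti-GZF1 density was 1.40 (1.21 to 1.62) for Osr1, 1.34 (1.19 to 1.501) for Six4, 1.29 (1.22 to 1.37) for Pax2, 0.917 (0.828 to 1.01) for Sall1, 0.903 (0.812 to 1.002) for Six2 and 0.883 (0.830 to 0.939) for Eya1. In RGM 3 genes were higher, against 35.2% of all gene windows, and 1 was lower, against 22.4%. Eya1 reversed when set against its neighbourhood, from 0.883 to 1.18 (1.11 to 1.25), as the surrounding 1 Mb itself stood at 0.748. Relative to the surrounding 1 Mb, Osr1, Six4, Eya1 and Pax2 were higher in RGM (24.1% of all windows) and 0 lower (13.7%).

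The anti-FLAG libraries of the 2 clones were compared in the same way. The RGM to Cas9 ratio was 1.38 (1.32 to 1.44) for Pax2, 1.30 (1.19 to 1.42) for Six4, 1.17 (1.05 to 1.31) for Osr1, 1.13 (1.05 to 1.21) for Six2, 1.05 (0.980 to 1.13) for Sall1 and 0.870 (0.835 to 0.907) for Eya1. In RGM 4 genes were higher (43.6% of all windows) and 1 lower (26.8%). Relative to the surrounding 1 Mb, Eya1 again reversed, to 1.17 (1.13 to 1.22), Pax2 fell to 1.09, and 5 of the 6 were higher (27.8%) and 0 lower (19.5%). The Osr1 interval began at 1.002 without the counting error of the surrounding 1 Mb, so its place above 1 is uncertain. Cell line, clone and library differ together in these pairs, so their parts cannot be told apart.

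The 6 genes had no common direction between the Gzf1 knockout and the control. The ratio of knockout to control with anti-GZF1 was 1.33 (1.24 to 1.42) for Sall1, 1.21 (1.16 to 1.26) for Pax2, 1.08 (0.990 to 1.18) for Six2, 0.966 (0.868 to 1.07) for Osr1, 0.946 (0.878 to 1.02) for Six4 and 0.943 (0.909 to 0.977) for Eya1. In the knockout 2 genes were higher (24.3% of all windows) and 1 lower (21.1%), and the median of the 6 was 1.02 against 1.01 for all windows. Pax2 reversed relative to the surrounding 1 Mb, to 0.939 (0.899 to 0.981), as the region stood at 1.29. On that scale Sall1, at 1.14 (1.06 to 1.22), and Six2, at 1.10 (1.01 to 1.20), were higher (11.5% of all windows) and Eya1, at 0.945, and Pax2 lower (9.75%). Sall1 was the gene with the largest ratio on both scales and 96.5% of all gene windows had a ratio at or below it on each.

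The Cas9 wild type stood above the control at some of the genes. Its ratio to the control was 2.04 (1.88 to 2.21) for Six2, 1.57 (1.46 to 1.68) for Sall1, 1.37 (1.31 to 1.44) for Pax2, 1.09 (0.977 to 1.22) for Osr1, 0.973 (0.936 to 1.01) for Eya1 and 0.913 (0.840 to 0.993) for Six4. In the wild type 3 genes were higher (65.5% of all windows) and 1 lower (20.2%), and the median of 1.23 equalled that of all windows, 1.23. Relative to the surrounding 1 Mb, Osr1 rose to 1.65 (1.47 to 1.84), Sall1 stood at 1.48, Six2 at 1.37, Six4 turned to 1.09 (1.003 to 1.19), Eya1 stood at 1.027 and Pax2 at 1.01, with 4 genes higher (47.3%) and 0 lower (19%). On that scale the median of the 6 was 1.23 and that of all windows 1.07. The knockout and the wild type were each set against the same control library, so their 2 ratios are not independent. Windows of genes with CpG-rich promoters had a median wild type to control ratio of 1.34, those of other genes with a promoter entry 1.05 and those of genes without an entry, as Eya1 and Osr1 are, 1.24. Relative to the surrounding 1 Mb these medians were 1.10, 1.02 and 1.08. The part of promoter CpG content in the values of the 6 genes was not tested.

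**Figure D5:**
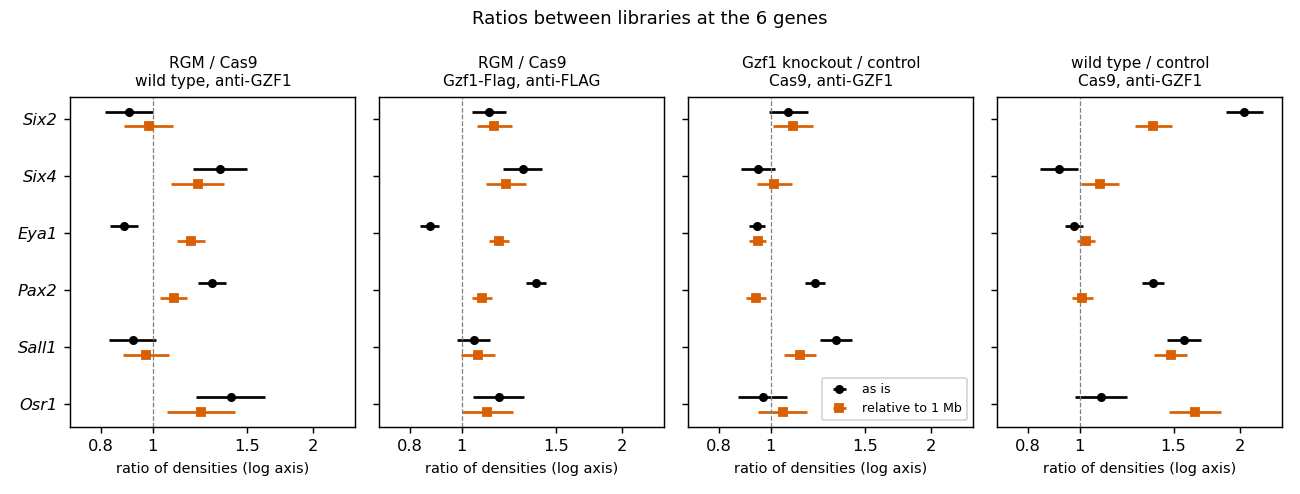
Ratios of read density between 4 pairs of libraries (horizontal log axes) at the 6 genes (vertical axis), as is (black circles) and relative to the surrounding 1 Mb (orange squares), with 95% exact binomial intervals. Eya1 crosses 1 between the scales in both RGM to Cas9 panels (0.883 to 1.18 and 0.870 to 1.17), and Six2 has the highest wild type to control ratio, 2.04.

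A list of 40 other kidney development genes was described in the same way. Of 39 with an autosomal window, all but Cited1, 24 had a mean log2 over input of the 4 GZF1 libraries above the median of all genes, and the list median was 0.12. The median of the 6 genes, 0.001 over whole windows, was 0.12 over gene bodies alone and 0.09 over the bins that passed the input filter. The medians of the lists and of all genes were taken over whole windows only, so only the whole-window median can be set against them. Among the highest were Foxd1, a factor of the kidney stroma, at 0.66 and Hoxa11, a patterning gene of the metanephros, at 0.44. The lowest was Fgf20, a growth factor of the progenitors, at −0.21. Of 13 paralogs of the 6 genes, 11 were above the median of all genes, with a list median of 0.14. Pax8, Osr2 and Eya4 are among the genes in both lists.

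By the distance over the 7 log2 values to the median of the 6 genes, the most alike of all gene windows were Luzp1 (0.060), Rhobtb1 (0.076), Scyl2 (0.077), Iqca (0.082) and Ccdc191 (0.083). The members themselves lay farther from their own median, from 0.21 for Osr1 to 0.58 for Six2, beside a median distance of 0.53 for all gene windows.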

How the data were processed

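GZF1 and H3K27ac occupancy in stem cell chromatin was read from 1 deposited table of 1 kb bins with 8 of 12 libraries, and the other 4 were not analysed here. Per the submitters' processing notes, the authors used cutadapt, Bowtie2 2.5.4, SAMtools and deepTools with mm10. The deposited values are estimated counts (expected counts) of reads per bin, multiples of 0.05 and not scaled to depth. How duplicate or poorly mapped reads were handled is not given in the sources used here.

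Bins overlapping each gene with 5 kb on each side were summed and divided by the library's autosomal mean. Log2 over input and over local background (median of 10 bins on each side) used a pseudocount of 0.5. Ratios between libraries were taken on rounded reads, over gene windows with at least 100 reads in both libraries together. The surrounding 1 Mb was centred on the gene window, which was left out of it. Intervals of log2 over input came from error propagation of the read counts. Each group has 1 library, so no test between libraries was run. Library depth was 10.1 to 94.2 M reads, and intervals cover counting error only, as sequenced reads are not independent molecules.

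Gene positions and promoters came from RefSeq tables of GRCm38.p6, and 4 of the 6 genes matched a promoter entry. The members and lists were chosen with earlier results of these data known. The CpG-rich class, the motif search, the folds over the surrounding 1 Mb and the bins of other kidney genes were added after the data were seen. Background shares are over all autosomal bins, not only those that pass the input filter. All members are named, with the highest bin of each window by the mean of the 4 GZF1 libraries, every bin passing in at least 2 of these, and the 3 highest and the lowest other kidney gene, of which 1 is not reported here. Alternatives were other pseudocounts, scaling, windows, filters and thresholds. The calculations were tested on simulated data. Scripts ran on scipy 1.17.1, pandas 2.3.3 and numpy 2.4.6 under Python 3.11.15.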

Additional observations from a re-analysis of the deposited data

How the results depend on the processing

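The number of bins of the 6 windows that passed in at least 2 of the 4 GZF1 libraries was 4 and fell to 2 with a pseudocount of 1 and to 1 with a log2 threshold of 1.5; it was 5 with a pseudocount of 0.25 or 25 bins on each side, and 4 with the input filter. The log2 over input of Sall1 reversed over bins that pass the input filter, from −0.20 to 0.20 in both Cas9 Gzf1-Flag and the knockout, and 5 other of the 42 log2 values moved, all of them of Sall1. With the gene body alone 10 of the 42 moved, all 7 of Osr1 and 3 of Six4. Relative to the surrounding 1 Mb, the Eya1 ratios of RGM to Cas9 reversed to 1.18 with anti-GZF1 and 1.17 with anti-FLAG, the Pax2 ratio of knockout to control to 0.939 and the Six4 ratio of wild type to control to 1.09. Of the 24 ratios 14 kept both their direction and the place of their interval (above, below or covering 1) on that scale, and 3 crossed 1 with intervals that covered it on both scales: knockout to control for Six4 (0.946 to 1.02) and Osr1 (0.966 to 1.05), and wild type to control for Eya1 (0.973 to 1.027). The median log2 over input of the 6 genes was 0.001 as reported and reached 0.12 with the gene body alone. Their median density was 1.56 and reached 1.62 with scaling to the median of bins with reads. The other medians over the 6 genes kept to within the spread between the genes under every alternative run. That spread was wide, so this is a loose standard. Counts of passing bins in RGM wild type ran from 5 to 21 against 13, and in input from 4 to 31 against 20. No paired analysis was possible because each group has 1 library. Depth limits the input most, with 10 reads in the highest Pax2 bin.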
